A study of Arabidopsis thaliana with 36 samples.

Results

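The data compared leaf transcripts of anac017-2 with those of wild type after an antimycin A spray, on 6 of the 36 arrays of the series, 3 of each genotype. Each array held RNA from the green leaves of 14-day-old Arabidopsis seedlings of ecotype Columbia, grown on sucrose medium, sprayed with 50 µM antimycin A and harvested 3 h later. The arrays of each group were taken by genotype and spray as labelled, not by a measured value. The comparison itself was chosen with earlier results of these data known. Wild type is labelled Col:LUC, and anac017-2 is described as a gain-of-function line of the transcription factor gene ANAC017. Further arrays were used for reference, 3 in each group. They were wild type and anac017-2 sprayed with water, and rao2 (a line from chemical mutagenesis) and anac017-1 (a T-DNA insertion line described as a knock-out) sprayed with water or with 50 µM antimycin A. Arrays of leaves sprayed with 20 mM hydrogen peroxide entered no comparison, and served to place the others and, with all 36 arrays, to estimate the spread behind each test. The labels name that reporter line for wild type alone and are silent on a reporter in the mutants, so genotype and line background cannot be told apart. Whether replicates came from separate plantings is not stated either, so the spread behind each p-value is that between these samples and may be technical. Each mutant is 1 line. ANAC017 itself and the alternative oxidase gene AOX1A were not analysed here, because the gene table names no probe set for them, and the targeted transcript therefore gave no check of the labels.

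Antimycin A blocks complex III of the mitochondrial electron transport chain, so that electrons back up and reactive oxygen forms. Plant cells answer with mitochondrial retrograde signalling, in which the nucleus raises genes of alternative respiration, detoxification and stress. ANAC017 is a NAC transcription factor held in the endoplasmic reticulum membrane, and its released part enters the nucleus and activates genes of the mitochondrial dysfunction stimulon. The comparison asks how leaves with the gain-of-function allele differ from wild type leaves under the same inhibitor.

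The antimycin A arrays of anac017-2 stood apart from the other antimycin A arrays of the series, and every result below rests on them. Over 4009 probe sets that changed by at least 1 on the log2 scale with antimycin A in rao2 and anac017-1, each array was given a position, with 0 for the water mean and 1 for the antimycin A mean of these 2 mutants. The wild type antimycin A arrays lay at 0.828, 0.941 and 0.972, and those of rao2 and anac017-1 between 0.895 and 1.092. The rao2 and anac017-1 arrays chose the probe sets and define the scale, so their place near 1 was set in advance. Only the wild type arrays are a separate reference. The anac017-2 antimycin A arrays lay at 0.137, 0.095 and 0.206. They did not overlap the anac017-2 water arrays (-0.068 to -0.013), and they did overlap the hydrogen peroxide arrays of anac017-2 (0.016 to 0.237) and of wild type (0.175 to 0.27). Across all probe sets the anac017-2 antimycin A arrays correlated with wild type water arrays at r between 0.982 and 0.988 and with wild type antimycin A arrays at 0.944 to 0.968. Probe sets are not independent replicates, so these values describe the arrays only. Whether the spray acted alike on both genotypes was not tested, and no array of anac017-2 under antimycin A lay near the other antimycin A arrays, so no result can be given without them.

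**Figure D1:**
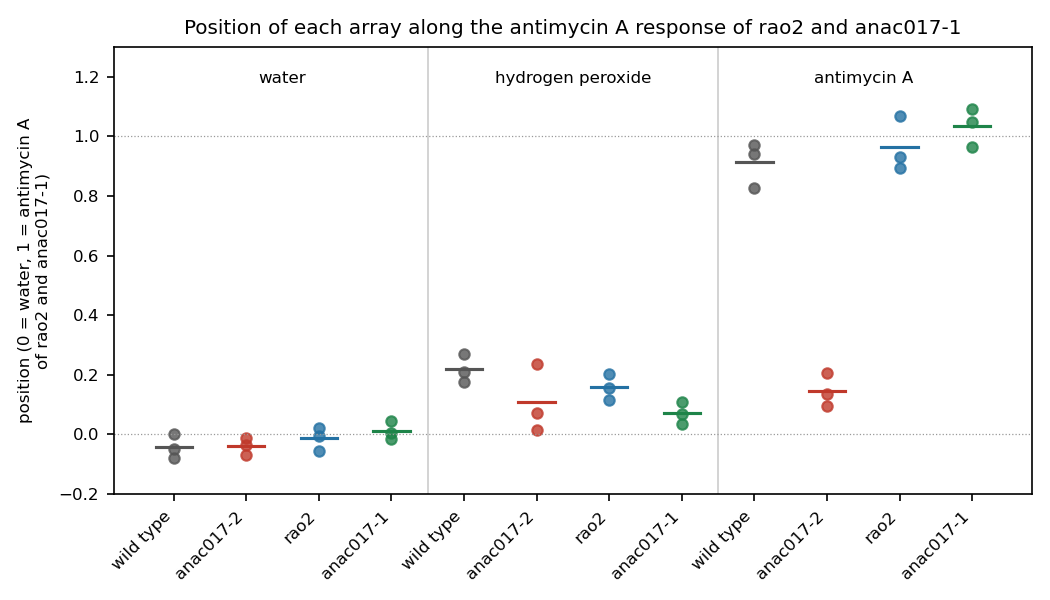
Position of each of the 36 arrays (points; bars, means of 3 arrays) between the water mean (0) and the antimycin A mean (1) of rao2 and anac017-1, by spray and genotype. The 3 anac017-2 antimycin A arrays sit between 0.095 and 0.206, and the other 9 antimycin A arrays sit between 0.828 and 1.092. Among those 9, the rao2 and anac017-1 arrays define the scale, and the wild type arrays (0.828 to 0.972) do not.

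RNA quality and tissue makeup were read from the same arrays. The 3' minus 5' signal of actin, GAPDH and ubiquitin controls was 0.60 ± 0.02 (log2, mean ± SD, n = 3) in anac017-2 and 0.63 ± 0.05 in wild type under antimycin A for the second control set, and the groups overlapped. The anac017-1 antimycin A arrays (0.68 to 0.8) lay above those of anac017-2 (0.58 to 0.62). In the first set rao2 (3.21 to 3.55) and anac017-1 (3.29 to 3.69) lay above anac017-2 (3.13 to 3.18). The bearing on comparisons with these mutants was not tested. Array medians lay between 6.28 and 6.38 (log2) and lower quartiles between 2.45 and 2.56. Background was set at the lower quartile of each array, values up to it are called not above background, and a difference with such values was computed again with them raised to that quartile (raised difference). The leaf genes of the photosynthesis list were bright in all groups, with a summed intensity over 11 of 56 listed loci of 157000 to 167000 in anac017-2 and 127000 to 136000 in wild type under antimycin A. Of 17 root markers 2 were measured, with summed intensities of 10.2 to 13.8 and 8.77 to 10.2, and all 6 EXPA7 values were not above background. The shoot meristem marker CLV3, 1 of 5 listed, was not above background on any of these 6 arrays either. Of 9 guard cell markers 3 were measured, with summed intensities of 102.0 to 129.0 in anac017-2 and 59.1 to 78.2 in wild type, and their values are given with the growth genes. Intensities of different probe sets are not on one scale, so the sums serve only to compare arrays.

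Under antimycin A, 8852 of 22746 probe sets differed between anac017-2 and wild type at an adjusted p under 0.05 in limma, which is 38.9% of those tested. Of these, 5436 (23.9%) were higher and 3416 (15.0%) lower in anac017-2, and the median difference over all probe sets was 0.02 (log2). With a difference of at least 1 as well, 1429 (6.28%) were higher and 1747 (7.68%) lower. The values of the 2 groups did not overlap for 45.5% of all probe sets. In water the same genotypes differed at 115 probe sets (0.506%), with 97 (0.426%) higher and 18 (0.0791%) lower in anac017-2. That count was 1891 with array weights (967 higher and 924 lower), 60 without wild type replicate 1, 40 without anac017-2 replicate 2 and 49 without its replicate 3, so it and the splits of it below depend on the fit. The genotype difference under antimycin A was itself different from that in water at 6467 probe sets (28.4%). No array is shared between the water and the antimycin A comparison. Of the 115 water calls, 8 (6.96%) were called in the same direction under antimycin A, 61 (53.0%) in the opposite direction, and 46 (40%) were not called. Those 8 and 61 are 0.0904% and 0.689% of the antimycin A calls. Across probe sets the 2 differences had a Pearson r of -0.03 (Spearman rho 0.04, n = 22746 probe sets from the same 36-array normalization).

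The difference ran against the antimycin A response of the other mutants, which was measured on arrays that the comparison does not use. The mean response of rao2 and anac017-1 was called at 11852 probe sets (52.1%), and 2055 (9.03%) of them rose by at least 1 on the log2 scale while 1954 (8.59%) fell by at least 1. Of the 2055 risen probe sets, 1670 (81.3%) were lower in anac017-2 than in wild type under antimycin A, 10 (0.487%) were higher, and 375 (18.2%) were not called, against 15.0% lower and 23.9% higher over all probe sets. Their median difference was -1.51 (log2), and their median change from water to antimycin A was 1.77 in wild type and 0.23 in anac017-2. Of the 1954 fallen probe sets, 1581 (80.9%) were higher in anac017-2 and 15 (0.768%) were lower. Their median change from water was -1.24 in wild type and -0.35 in anac017-2. The 405 probe sets that rose by at least 3 had a median genotype difference of -3.34, and 380 (93.8%) were lower in anac017-2. Among the 10894 probe sets without a called response in rao2 and anac017-1, 764 (7.01%) were higher and 524 (4.81%) lower. Across all 22746 probe sets the genotype difference and the mean response of rao2 and anac017-1 had a Pearson r of -0.84 (Spearman rho -0.76), on arrays that share the normalization and no sample. In water the median genotype difference of each class lay between -0.03 and 0.01.

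**Figure D2:**
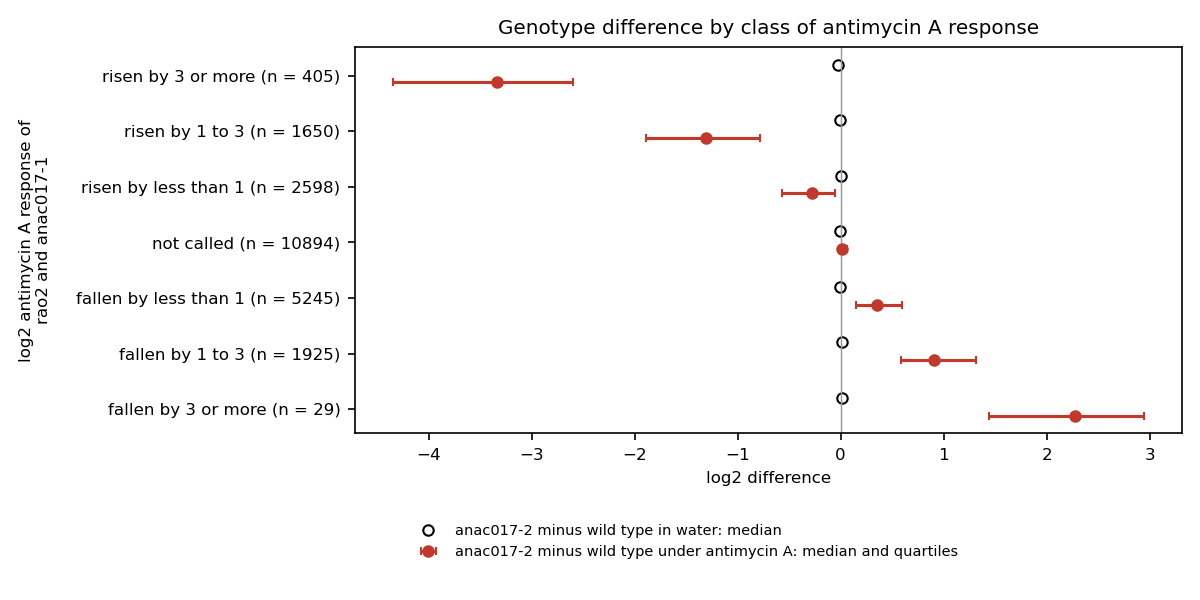
Log2 difference between anac017-2 and wild type for probe sets grouped by their antimycin A response in rao2 and anac017-1 (rows, with the number of probe sets). Filled points and bars give the median and quartiles under antimycin A, open points the median in water; the antimycin A medians run from -3.34 for probe sets that rose by 3 or more to 2.28 for those that fell by 3 or more.

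The genes furthest below wild type included genes of immunity, calcium signalling, lignin synthesis and hypoxia, with anac017-2 means of 1.87 to 6.23 (log2 intensity, median 3.23) against wild type means of 7.89 to 12 (median 9.5). The wild type water means of the same 12 genes had a median of 2.77. Naming took the 12 lowest called differences with no overlap between groups, so the separation of their values adds no support. AT2G23270 read 11.00, 10.58 and 9.88 on the wild type arrays and 3.96, 2.45 and 3.80 on the anac017-2 arrays under antimycin A. All 3 wild type arrays were high, and the difference was -7.08 ± 0.80, adjusted p = 9.11e-08 (log2, SE of the fit, n = 3 per group, as for all differences below; raised difference -7.05). AT2G32140, which encodes a protein with a TIR domain as found in immune receptors, read 9.41, 9.82 and 9.71 in wild type and 2.76, 3.20 and 3.22 in anac017-2 (-6.59 ± 0.58, adjusted p = 1.76e-09, or 96.2-fold). Its water means were 2.75 and 2.57, so that the anac017-2 arrays under antimycin A lay near water and the wild type arrays far above it. The tetraspanin gene TET9 read 8.48, 8.71 and 8.55 in wild type and was not above background on any anac017-2 array, so it was lower by at least 6.08. AT5G22530 differed by -6.49 ± 0.46, AT2G33710 (an AP2/ERF transcription factor) by -6.10 ± 0.60 and AT3G26470 (with an RPW8 domain of resistance proteins) by -6.02 ± 0.66. AT3G01830, a calmodulin-like protein, read 11.28, 11.32 and 11.24 in wild type and 3.77, 5.10 and 6.84 in anac017-2 (-6.05 ± 0.95, adjusted p = 1.01e-05). The wild type arrays agreed closely and the anac017-2 arrays spread over a wide range well below them. CCR2, a cinnamoyl-CoA reductase of lignin synthesis, differed by -6.02 ± 0.55 and AT5G05300 by -5.68 ± 0.67, each with 1 anac017-2 array not above background (raised differences -5.95 and -5.58). AT4G24110, a gene of the core hypoxia response, had 7.89 in wild type and 2 of 3 anac017-2 arrays not above background (raised difference -5.23). The other two were AT1G71530, a protein kinase gene, at -5.80 ± 0.50 and the glutathione transferase gene GSTU25 at -5.77 ± 0.91. The 12 had adjusted p of 1.02e-05 or less, and none was called in water.

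Most of these 12 genes were high in rao2 and anac017-1 under antimycin A, where their means had medians of 9.9 and 9.73. The comparison of anac017-2 with the mean of rao2 and anac017-1 under antimycin A shares the anac017-2 arrays with the main one, and it called 10278 probe sets (45.2%), of which 6396 (28.1%) were higher and 3882 (17.1%) lower in anac017-2. It called 10 of the 12 lower, with AT2G32140 at -7.45 ± 0.50 and TET9 at -7.06 ± 0.48. The 12 were chosen by those same anac017-2 arrays, so these calls add no support. The 2 genes not called were AT1G71530 and GSTU25. These 2 genes and AT2G23270 were lower than wild type in all 3 mutants, with AT2G23270 at -2.94 ± 0.80 in rao2 and -5.06 ± 0.80 in anac017-1. AT1G71530 had a mean of 8.76 in wild type, 3.77 in rao2, 3.65 in anac017-1 and 2.96 in anac017-2 under antimycin A. Against wild type, rao2 differed by -4.99 ± 0.50 and anac017-1 by -5.11 ± 0.50.

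The genes furthest above wild type included genes of lipases and of pectin and acyl metabolism, with anac017-2 means of 5.6 to 10.04 (log2, median 7.55) against wild type means of 2.24 to 5.38 (median 4.07). The wild type water means of the same 12 genes had a median of 7.43. AT5G01790 read 7.53, 7.64 and 7.30 in anac017-2 and 4.97, 2.22 and 1.72 in wild type, where 2 arrays were not above background, and its water means were 8.30 and 8.13. The anac017-2 arrays stayed close to water and the wild type arrays lay below them (raised difference 4.15; 4.52 ± 0.71, adjusted p = 1.12e-05). AT3G23450 differed by 4.66 ± 1.20, adjusted p = 0.00253, with wild type replicate 3 at 1.39 far below replicates 1 and 2 at 7.41 and 7.33. Without that array its difference was 2.67, and that of AT1G54820 was 1.98, while AT1G13650 lost its call at 2.73. The GDSL lipase gene AT4G28780 read 5.75, 5.61 and 5.44 in anac017-2 and was not above background on any wild type array, so it was higher by at least 3.09. A further GDSL lipase gene, AT1G75900, differed by 3.57 ± 0.45, and AT1G72230, which encodes a cupredoxin-fold protein, by 3.73 ± 0.34. AT1G23205 (an invertase or pectin methylesterase inhibitor) differed by 3.31 ± 0.49, AT5G02890 (an acyltransferase) by 3.32 ± 0.35 and the serine carboxypeptidase-like gene scpl50 by 3.29 ± 0.52. P1R1 was higher by 3.41 ± 0.35, AT1G78170 by 3.38 ± 0.43, AT1G13650 by 3.59 ± 1.04 and the protein kinase gene AT1G54820 by 3.30 ± 0.59. With low values raised, the differences were 4.27 for AT3G23450, 3.60 for AT1G72230, 3.11 for AT1G23205, 3.11 for AT1G54820, 3.30 for P1R1 and 3.15 for scpl50. Adjusted p of the 12 ran up to 0.00667. Wild type replicate 3 was the lowest wild type array for 9 of the 12, and AT3G23450 and AT1G54820 were not called in a fit of the 6 compared arrays alone. None of the 12 was called in water. All 12 were also called higher in anac017-2 than in the mean of rao2 and anac017-1, against 28.1% over all probe sets. That comparison shares the anac017-2 arrays by which the 12 were chosen, so it adds no support.

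**Figure D3:**
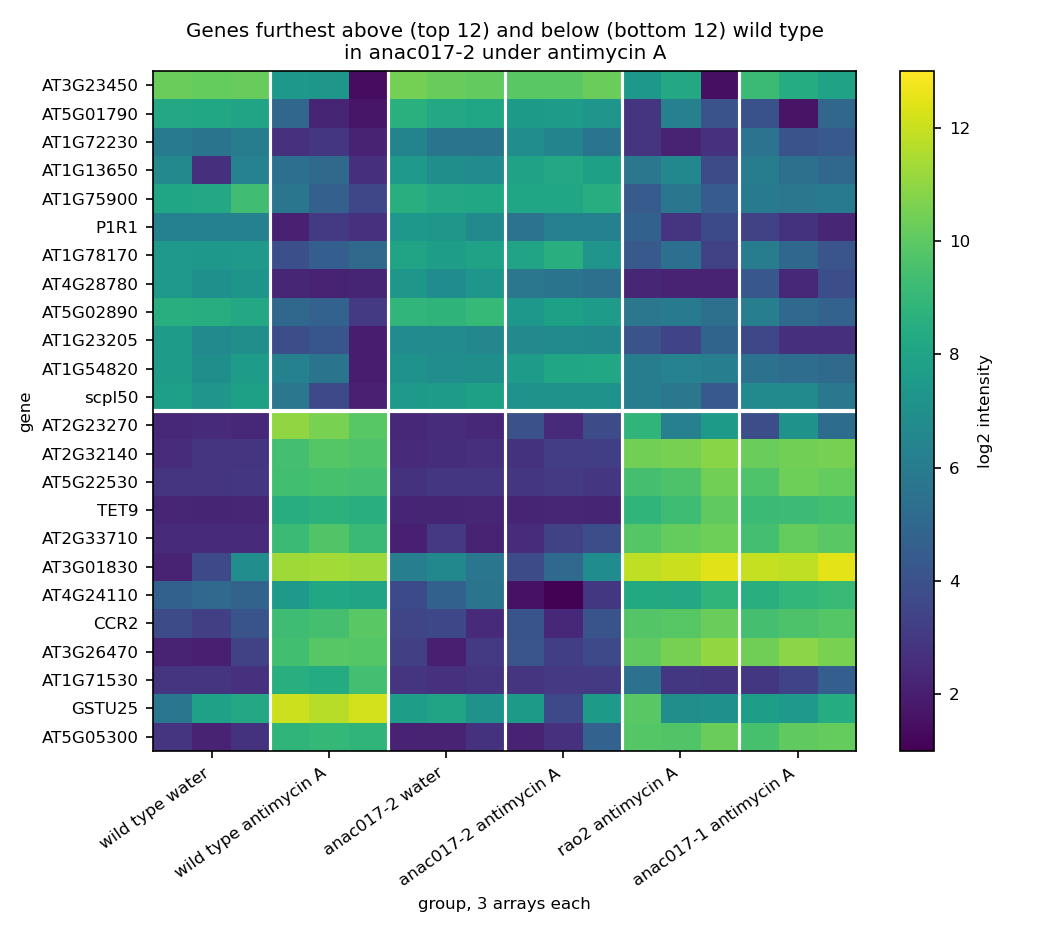
Log2 intensity of the 12 genes furthest above wild type (upper rows) and the 12 furthest below (lower rows) in anac017-2 under antimycin A, 1 column per array, 3 arrays per group. In the lower rows the anac017-2 antimycin A columns are close in colour to the water columns in most rows, with group means from 1.87 to 6.23, while the wild type antimycin A means run from 7.89 to 12.

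Some genes differed under antimycin A without a called antimycin A response in rao2 and anac017-1. The 5 lowest and 5 highest of these were taken by the same rule after the values had been seen. GSTU25 is among the 5 lowest. AT3G54520 read 8.34, 7.48 and 7.60 in wild type and 2.52, 2.73 and 2.59 in anac017-2, with means of 3.37 in rao2 and 2.56 in anac017-1. Against wild type it differed by -5.19 ± 0.34 in anac017-2, -4.43 ± 0.34 in rao2 and -5.25 ± 0.34 in anac017-1, and these 3 differences share the wild type arrays. AT2G20720, a pentatricopeptide repeat protein gene, had means of 10.66 in wild type, 5.85 in anac017-2, 5.66 in rao2 and 4.05 in anac017-1. Its rao2 arrays read 8.87, 4.06 and 4.07, with replicate 1 far above the others. AT1G74870, with a RING or U-box domain of ubiquitin ligases, read 11.88, 11.50 and 11.79 in wild type and 7.51, 7.09 and 7.59 in anac017-2, against 9.37, 3.53 and 3.01 in rao2 and a mean of 4.17 in anac017-1. In that gene anac017-2 lay below wild type (-4.33 ± 0.95, adjusted p = 0.000583) and above the mean of the other mutants (2.66 ± 0.83, adjusted p = 0.00932). Replicate 1 of rao2 lay above every anac017-2 array, and against rao2 alone the difference was not called (2.09 ± 0.95, adjusted p = 0.0881). AT2G38240, a 2-oxoglutarate-dependent oxygenase gene, differed by -5.44 ± 1.05. Among the 5 highest, AT3G28270 read 5.37, 5.22 and 5.67 in anac017-2 and was not above background on any wild type array (higher by at least 2.91), and its mean was 2.78 in anac017-2 water arrays and 2.46 in rao2 under antimycin A. The anac017-2 arrays of AT3G28270 under antimycin A thus lay above these groups. They overlapped the hydrogen peroxide arrays of anac017-1, which read 5.01, 5.52 and 4.42. AT5G53710 differed by 3.13 ± 0.79, AT3G56260 by 3.19 ± 0.67, AT2G01610 (a pectin methylesterase inhibitor, raised difference 2.21) by 2.46 ± 0.85 and AT1G60590 (a pectin lyase-like protein) by 2.41 ± 0.68. The calls of AT2G01610 and AT1G60590 were lost without wild type replicate 3 (1.41 and 1.53) and in the fit of the 6 arrays alone, and that of AT2G01610 also without anac017-2 replicate 1 (2.39) or 3 (2.32).

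Genes of the mitochondrial dysfunction stimulon, which ANAC017 is known to activate, were called lower or not called. This list and those that follow were chosen with earlier results of these data known. Their counts beside the shares over all probe sets are therefore descriptive and add no independent support. Of 22 listed loci 12 were measured, of which 0 were higher and 6 lower in anac017-2 than in wild type under antimycin A, against 23.9% and 15.0% over all probe sets, and their median difference was -1.92. In water 4 of the 12 were higher in anac017-2 (0.426% over all probe sets) with a median of 2.16, against -0.01 over all probe sets. Against rao2 and anac017-1 under antimycin A, 8 were higher and 1 lower (28.1% and 17.1% over all probe sets), and against anac017-1 alone 8 were higher and 0 lower. AT2G21640, the oxidative stress gene UPOX, read 7.26, 7.43 and 7.93 in wild type water arrays and 12.75, 12.45 and 12.83 with antimycin A, and 10.96, 11.28 and 11.29 and 12.24, 12.13 and 12.42 in anac017-2. It was thus high in anac017-2 in water as well (3.64 ± 0.49, adjusted p = 0.000182). Under antimycin A its anac017-2 values lay just below those of wild type without a call (-0.42 ± 0.49, adjusted p = 0.614). The values did not overlap. The multidrug transporter gene AT2G04050 read 9.41, 9.37 and 9.46 in anac017-2 water arrays against 4.59, 5.21 and 5.86 in wild type (4.19 ± 0.95, adjusted p = 0.0412). Under antimycin A it had 10.75 ± 0.14 in anac017-2 and 12.19 ± 0.42 in wild type (mean ± SD, n = 3; difference -1.43 ± 0.95, adjusted p = 0.279), so the genotypes were far apart in water and closer under the inhibitor. In the fit of the compared arrays alone AT2G04050 was called lower under antimycin A (adjusted p = 0.00895). AT2G41730 differed by 3.02 ± 0.59, adjusted p = 0.0128 in water and by -0.75 ± 0.59, adjusted p = 0.376 under antimycin A, and the oxygenase gene AT5G43450 by 2.13 ± 0.39, adjusted p = 0.00721 and -0.53 ± 0.39, adjusted p = 0.341. The probe set of AT2G41730 carries the suffix for possible cross-hybridisation. The 4 genes called in water changed from water to antimycin A by 5.14, 6.97, 4.98 and 4.22 in the wild type means, in the order named. The change in the anac017-2 means was 1.08, 1.34, 1.21 and 1.57, and the test of the difference between genotypes gave adjusted p of 7.75e-05, 0.00231, 0.00106 and 0.000587. That test contains the water differences by which the 4 were picked, so it adds no support.

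Against the other mutants these 4 genes stood high in anac017-2 under antimycin A. AT2G21640 read 10.87, 7.24 and 7.64 in rao2 and 7.70, 7.82 and 7.85 in anac017-1, and anac017-2 lay above their mean by 4.08 ± 0.42, adjusted p = 9.87e-09. AT2G04050 read 10.37, 2.69 and 5.58 in rao2 and 4.10, 4.08 and 4.31 in anac017-1 (difference 5.57 ± 0.83, adjusted p = 2.79e-06). The water call of AT2G04050 was lost without any 1 of the 6 water arrays (3.88 to 4.52). In both genes rao2 replicate 1 was far above the other rao2 arrays. That array came close to the anac017-2 values for AT2G04050 and stayed further below them for AT2G21640. It was the highest rao2 array for all 12 measured stimulon members. Against anac017-1 alone, the differences were 4.47 ± 0.49, adjusted p = 2.4e-08 for AT2G21640, 6.59 ± 0.95, adjusted p = 1.98e-06 for AT2G04050, 3.45 ± 0.59, adjusted p = 1.94e-05 for AT2G41730 and 2.12 ± 0.39, adjusted p = 4.98e-05 for AT5G43450.

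**Figure D4:**
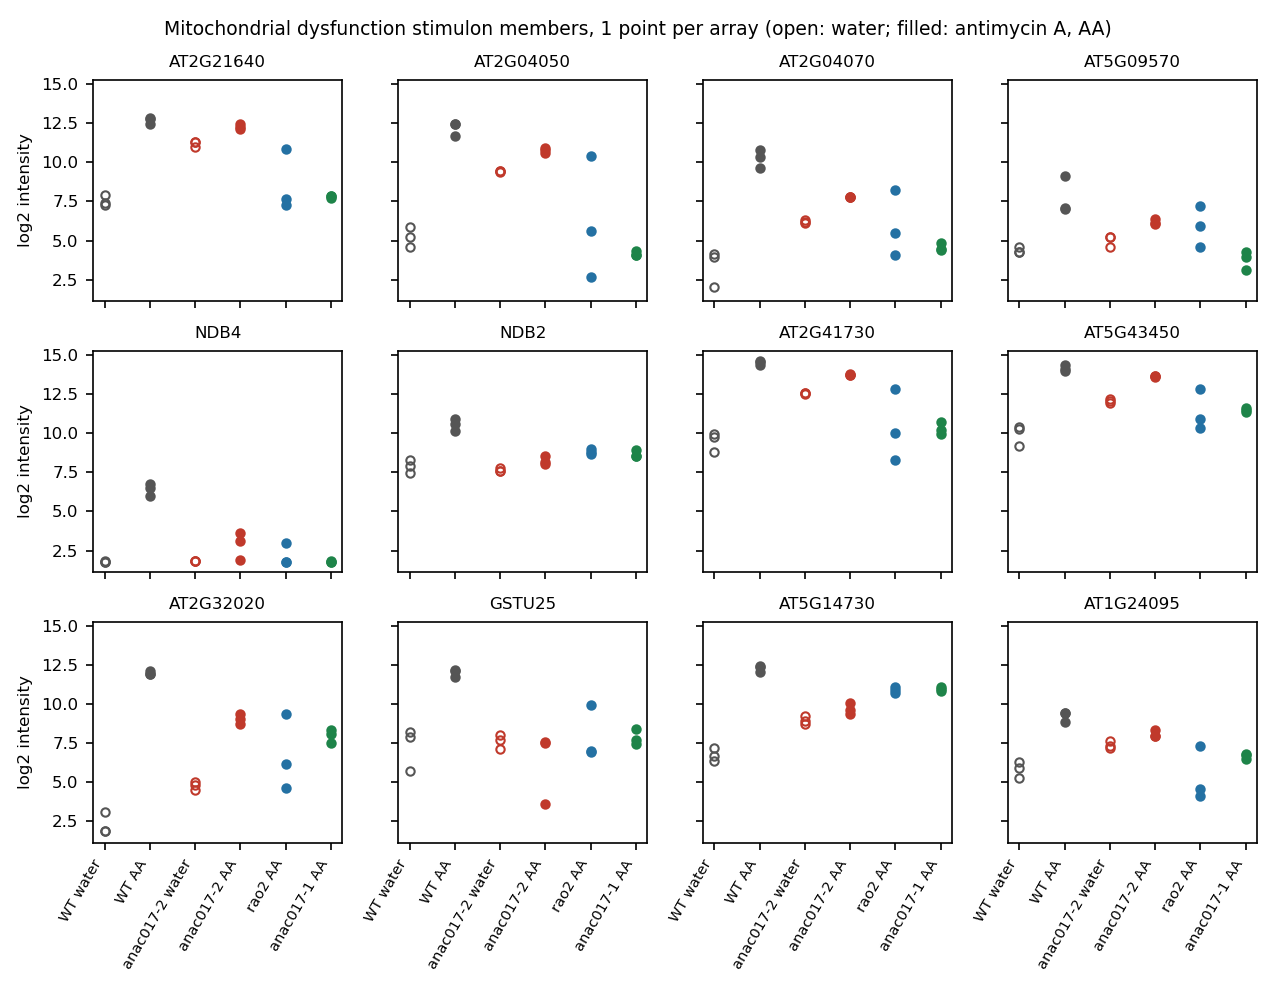
Log2 intensity of the 12 measured stimulon members, 1 point per array, for wild type (WT) and anac017-2 in water (open) and for all 4 genotypes under antimycin A (AA, filled). In AT2G21640 the anac017-2 water arrays lie at 10.96 to 11.29 and its antimycin A arrays at 12.13 to 12.42, while anac017-1 under antimycin A lies at 7.70 to 7.85.

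Other stimulon genes were below wild type under antimycin A. NDB4, an external NADH dehydrogenase of the alternative respiratory pathway, was not above background in water in either genotype. Under antimycin A it read 6.76, 5.99 and 6.51 in wild type and 3.65, 1.91 and 3.12 in anac017-2, with 1 anac017-2 array not above background, and the difference was -3.53 ± 0.28, adjusted p = 2.45e-10 (raised difference -3.31). NDB2, another external NADH dehydrogenase, read 10.56, 10.13 and 10.87 in wild type and 8.52, 8.01 and 8.15 in anac017-2 (-2.29 ± 0.27, adjusted p = 2.12e-07). Its means of 8.79 in rao2 and 8.66 in anac017-1 lay near that of anac017-2 (-0.50 ± 0.24, adjusted p = 0.0931). NDB1 (1.04 ± 0.18) and NDC1 (0.34 ± 0.06), which belong to the same enzyme family, were higher in anac017-2, and all 6 NDB3 values were not above background. AT2G32020, an acetyltransferase-like gene, had 11.98 ± 0.09 in wild type and 9.04 ± 0.30 in anac017-2 (-2.94 ± 0.71, adjusted p = 0.00146), against 4.79 ± 0.26 in anac017-2 water arrays. The transporter gene AT2G04070 differed by -2.48 ± 0.73, adjusted p = 0.00791 and AT5G14730 by -2.58 ± 0.55, adjusted p = 0.000378. For AT5G14730 anac017-2 was also below the other mutants (-1.23 ± 0.47, adjusted p = 0.0344), and against anac017-1 alone the difference was -1.27 ± 0.55, adjusted p = 0.0605. AT5G09570, a twin cysteine protein of mitochondria (-1.55 ± 0.65, adjusted p = 0.0625), and AT1G24095 (-1.14 ± 0.46, adjusted p = 0.0518) were not called.

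Heat shock genes encode small heat shock proteins, chaperones and their partners, and 14 of 29 listed loci were measured. In water 8 were higher and 0 lower (0.426% and 0.0791% over all probe sets), with a median of 1.79. Under antimycin A 0 were higher and 5 lower (23.9% and 15.0% over all probe sets), with a median of -0.92. The heat shock list, too, was chosen with earlier results of these data known. The difference between the comparisons was called for 9 of the 14, against 28.4% over all probe sets. The small heat shock gene AT1G54050 read 7.80, 7.79 and 7.97 in wild type water arrays and 10.13, 10.63 and 11.37 in anac017-2 (2.86 ± 0.32, adjusted p = 2.39e-05). Under antimycin A it read 9.67, 9.95 and 11.22 in wild type and 8.28, 7.65 and 7.95 in anac017-2 (-2.32 ± 0.32, adjusted p = 1.89e-06). The order of the genotypes thus turned between sprays, with no overlap in either. AT1G53540, of the same family, was higher in water (2.15 ± 0.44, adjusted p = 0.0181) and lower under antimycin A (-2.78 ± 0.44, adjusted p = 1.18e-05), and so were the co-chaperone genes AT5G48570 (1.77 ± 0.35 and -1.65 ± 0.35) and AT2G20560 (2.21 ± 0.36 and -1.54 ± 0.36). AT2G29500 was lower under antimycin A (-2.09 ± 0.50, adjusted p = 0.00122) and was not called in water (1.42 ± 0.50, adjusted p = 0.331). The DnaJ gene AT1G71000 differed by 5.02 ± 0.80, adjusted p = 0.00171 in water and the small heat shock gene AT5G37670 by 4.17 ± 0.52, adjusted p = 7.94e-05, and neither was called under antimycin A. High water levels were not particular to anac017-2. In anac017-1 the water means were 9.84 for AT1G54050, 8.26 for AT1G71000 and 11.28 for AT5G48570. The wild type means of these genes were 7.85, 3.85 and 9.9, and the rao2 means 8.76, 3.59 and 10.14. Differences of these mutants from wild type in water were not tested. AT5G51440, a mitochondrial small heat shock protein gene, read 11.96, 12.13 and 12.05 in anac017-2 and 11.83, 11.39 and 12.59 in wild type under antimycin A (0.11 ± 0.48, adjusted p = 0.934), and was above the mean of rao2 and anac017-1 by 4.72 ± 0.42, adjusted p = 5.9e-10. Wild type replicate 3 was the highest antimycin A array of wild type for 13 of the 14. AT2G29500 and, in water, AT5G37670 were not called in a fit of the compared arrays alone, which called AT5G37670 lower under antimycin A (adjusted p = 0.0215).

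Among the other genes that differed in water, AT1G21550, encoding a calcium-binding EF-hand protein, also turned. It was higher in water (4.18 ± 0.78, adjusted p = 0.00906) and lower under antimycin A (-2.32 ± 0.78, adjusted p = 0.0189). Its water mean was also high in anac017-1 (7.42), against 3.62 in wild type and 3.29 in rao2, which was not tested. Its antimycin A call was lost without wild type replicate 3 (-1.70) or anac017-2 replicate 2 (-2.04). Its water call was lost without wild type replicate 3 (3.57) or anac017-2 replicate 2 (4.03) and in the fit of the compared arrays alone (adjusted p = 0.079). The 5 genes furthest below wild type in water differed by less. AT2G40435 differed by -1.48 ± 0.34 in water and by 0.84 ± 0.34 under antimycin A, where it was called only under 4 alternatives, and AT2G43535 had -1.20 ± 0.27 and 0.47 ± 0.27. AT4G12540 (-0.96), AT2G34840 (-0.56) and AT4G16850 (-0.56) were lower in water as well. AT4G12540 read 2.55, 4.07 and 3.83 in wild type water arrays and 2.52, 2.54 and 2.52 in those of anac017-2. For that gene 1 anac017-2 water array was not above background, and wild type replicate 1 lay close to the anac017-2 values. The 5 had adjusted p between 0.0237 and 0.0426, and the difference between sprays was called for each. That test contains the water differences by which the 5 were picked, so its calls add no support. Each of the 5 water calls was lost without at least 4 of the 6 water arrays in turn, with values from -1.65 to -0.41 over the 5 genes in those fits.

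Markers of reactive oxygen and of early stress signalling were lower or not called in anac017-2 under antimycin A. Of 7 reactive oxygen hallmark loci 5 were measured, and 4 were lower and 0 higher, against 15.0% and 23.9% over all probe sets, with a median of -3.34. AT1G57630, a gene with a TIR domain, read 11.09, 11.05 and 10.82 in wild type and 6.42, 6.12 and 6.57 in anac017-2 (-4.61 ± 0.84, adjusted p = 7.24e-05). AT1G19020 read 13.42, 13.47 and 13.79 and 10.23, 9.74 and 10.68 (-3.34 ± 0.26, adjusted p = 2.66e-10), and in both genes every wild type array was high and every anac017-2 array low. AT1G05340 differed by -3.86 ± 0.51 and STZ, a zinc finger repressor of stress responses, by -2.59 ± 0.34. The fifth was AT2G21640, described above. Of 25 calcium and early signalling loci 9 were measured, with 5 lower and 0 higher against the same shares and a median of -1.41. The calmodulin-like gene CML37 read 7.75, 8.08 and 6.83 in wild type and was not above background on any anac017-2 array (lower by at least 5.05). CML38 differed by -3.87 ± 0.61 and CML41 by -3.20 ± 0.64.

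Few transcription factor and hormone genes of the lists were measured. Their counts stand beside 23.9% higher and 15.0% lower over all probe sets. Of 27 WRKY factors 3 were measured and 2 were lower, WRKY6 (-2.90 ± 0.26, adjusted p = 2.87e-09) and WRKY22 (-2.33 ± 0.35, adjusted p = 4.71e-06), which act in senescence and defence, with a median of -2.33 over the 3. Of 27 NAC factors only NAC014 was measured, and it was not called (0.09 ± 0.09, adjusted p = 0.55). Of 19 salicylate and defence loci 2 were measured, and both were lower. GRX480, a glutaredoxin of salicylate signalling, read 8.77, 10.07 and 9.68 in wild type and 4.43, 4.24 and 4.09 in anac017-2 (-5.25 ± 0.71, adjusted p = 1.22e-06), and SAG101, a lipase-like defence regulator, differed by -1.0 ± 0.34, adjusted p = 0.0201, a call lost without wild type replicate 2 (-0.75), anac017-2 replicate 1 (-0.95) or anac017-2 replicate 2 (-0.83). The only measured ethylene locus of 23 was the response factor AT1G22810 (-5.10 ± 0.49, adjusted p = 6.71e-09). Of 19 auxin loci 5 were measured, with 2 higher and 1 lower and a median of 0.01. GH3.3, an enzyme that conjugates auxin, was lower (-2.76 ± 0.44, adjusted p = 1.14e-05). The early auxin gene AT2G18010 (1.73 ± 0.43) and IAA29, a repressor of auxin response (0.99 ± 0.29), were higher. The cytokinin response regulator RR16 was higher by 1.48 ± 0.32. AT2G18010 had 1.02 without anac017-2 replicate 2, and it and RR16 were not called in the fit of the 6 arrays alone. None of 3 measured jasmonate loci of 30 was called, with 0.33 ± 0.87 for the defensin PDF1.2 and -0.40 ± 0.68 for the jasmonate methyltransferase JMT. None of 3 measured abscisic acid loci of 25 was called either, with 1.22 ± 0.70, adjusted p = 0.19 for the cold-regulated gene COR15B, which was called with array weights (1.59).

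Detoxification genes were lower or not called in anac017-2 under antimycin A. Of 19 listed loci 7 were measured, with 4 lower and 0 higher (15.0% and 23.9% over all probe sets) and a median of -2.02, and in water 2 were higher (0.426%) with a median of 1.29. The glycosyltransferase gene UGT73B5 read 7.66, 7.36 and 7.86 in wild type and 9.58, 9.77 and 9.71 in anac017-2 water arrays (2.06 ± 0.29, adjusted p = 0.00042). Under antimycin A it read 11.43, 11.41 and 11.50 in wild type and 8.12, 7.98 and 7.82 in anac017-2 (-3.48 ± 0.29, adjusted p = 7.73e-10). Its order turned between sprays, and its anac017-2 values were lower with antimycin A than in water. The water arrays of anac017-1 (9.09, 9.32 and 9.02) and rao2 (8.34, 8.68 and 8.11) also lay above those of wild type for UGT73B5. These differences were not tested. UGT73B4 read 10.70, 10.94 and 10.70 in wild type and 6.24, 4.95 and 6.55 in anac017-2 (-4.86 ± 0.55, adjusted p = 9.54e-08). AER, an enzyme that reduces reactive alkenals, differed by -2.02 ± 0.28 and UGT76B1 by -2.93 ± 1.14, adjusted p = 0.0432, with 2 anac017-2 arrays of UGT76B1 not above background (raised difference -2.49). The call of UGT76B1 was lost with raised values and without wild type replicate 1 (-1.98), anac017-2 replicate 2 (-2.54) or anac017-2 replicate 3 (-2.52). The second water call was UGT73C1 (2.98 ± 0.60, adjusted p = 0.0166), which was not called under antimycin A (-0.78 ± 0.60, adjusted p = 0.371). Of 32 glutathione transferase loci 11 were measured, with 3 lower and 2 higher against the same 15.0% and 23.9%. GSTU25 read 12.09, 11.72 and 12.18 in wild type and 7.54, 3.63 and 7.52 in anac017-2, where replicate 2 was lowest. GSTU22 differed by -4.40 ± 0.70, with a mean of 9.41 in wild type against 4.94 in rao2 and 5.22 in anac017-1. GSTU27 (1.09 ± 0.11) and GSTU18 (0.88 ± 0.22) were higher. Of 35 antioxidant loci 8 were measured, with 4 higher and 2 lower against these shares. The lower ones were the ascorbate-recycling enzyme ATMDAR2 (-0.99 ± 0.19) and the glutathione reductase GR1 (-0.35 ± 0.11), and AT3G52960, a peroxiredoxin (0.80 ± 0.13), and the plastid glutathione reductase GR (0.41 ± 0.11) were higher. The call of GR1 was lost without wild type replicate 3 (-0.28), without anac017-2 replicate 2 (-0.29) and with array weights (-0.18), and AT3G52960 was not called in the fit of the 6 arrays alone.

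**Figure D5:**
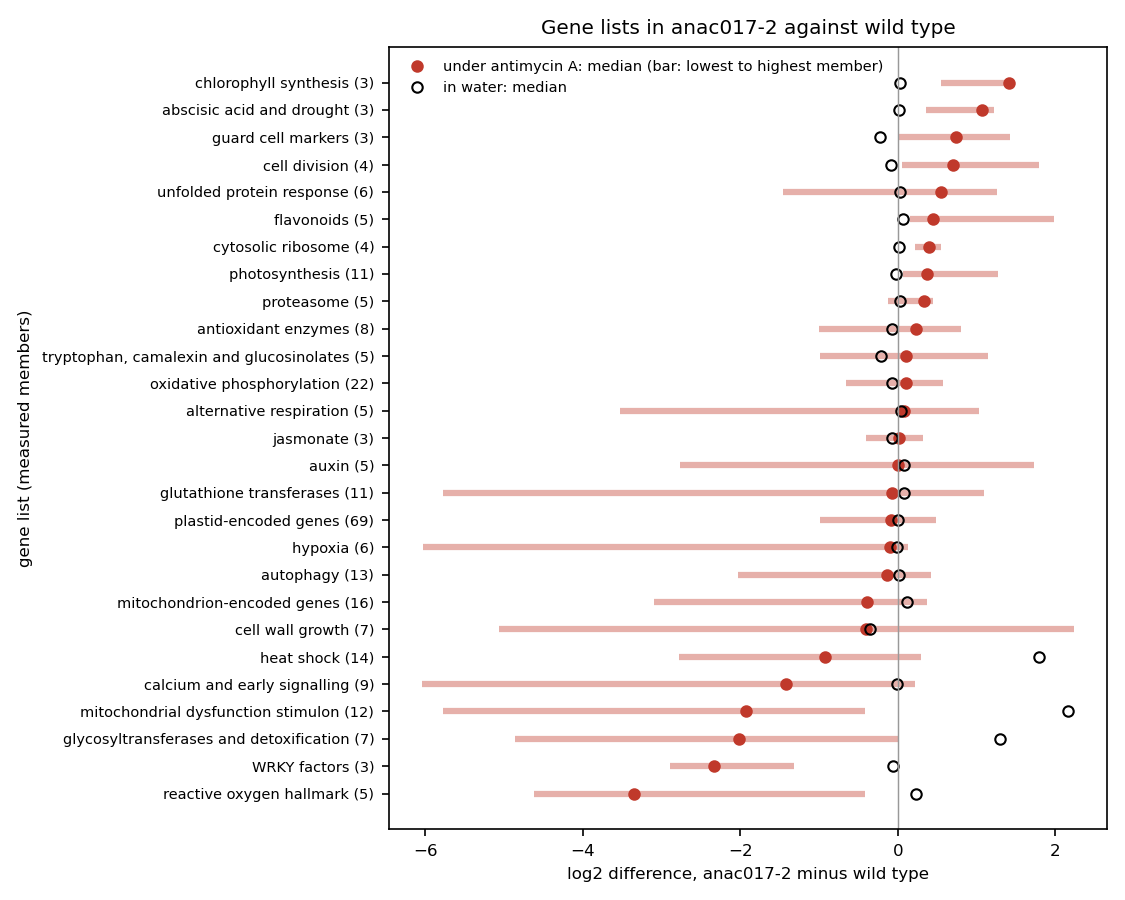
Median log2 difference between anac017-2 and wild type for each gene list with at least 3 measured members, under antimycin A (filled points, with bars from the lowest to the highest member) and in water (open points). The stimulon list lies at -1.92 under antimycin A and 2.16 in water, heat shock at -0.92 and 1.79, and chlorophyll synthesis at 1.42 and 0.03.

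Lists of photosynthesis, chlorophyll synthesis, ribosomes and the proteasome held genes that were higher in anac017-2 and none that was lower. Of 56 nuclear photosynthesis loci 11 were measured, with 6 higher and 0 lower and a median of 0.38, where 23.9% of all probe sets were higher and 15.0% lower, as for the counts that follow. PRK, a Calvin cycle kinase, read 13.22, 13.42 and 13.37 in anac017-2 and 12.38, 12.14 and 11.65 in wild type (1.28 ± 0.17, adjusted p = 7.73e-07). The antenna protein gene LHCB4.2 was higher by 0.63 ± 0.13, the chloroplast ATP synthase subunit gene ATPC1 by 0.74 ± 0.10 and the Calvin cycle gene SBPASE by 0.57 ± 0.11. For PRK and ATPC1 the anac017-2 arrays under antimycin A also lay above the water means of 12.83 and 13.66 in that genotype. All 3 measured chlorophyll synthesis genes of 13 were higher. PORB, a protochlorophyllide oxidoreductase, read 12.63, 12.61 and 12.73 in anac017-2 and 11.42, 11.34 and 10.97 in wild type (1.42 ± 0.18, adjusted p = 6.09e-07), CHLI2, a magnesium chelatase subunit, differed by 1.47 ± 0.20 and CHLM, a methyltransferase of the pathway, by 0.55 ± 0.10. All 4 measured cytosolic ribosome genes of 18 were higher, from 0.21 ± 0.05 for AT5G20290 to 0.55 ± 0.06 for AT3G09630. Of 29 proteasome loci 5 were measured and 3 were higher, AT2G32730 (0.45 ± 0.08), AT1G45000 (0.37 ± 0.06) and RPN12a (0.33 ± 0.07), of which RPN12a was not called in the fit of the 6 arrays alone.

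Endoplasmic reticulum, wall and cell cycle genes gave mixed counts. Of 25 unfolded protein response loci 6 were measured, with 3 higher and 2 lower, where 23.9% and 15.0% of all probe sets were, as for the other lists named here. The chaperone genes CRT1b (1.26 ± 0.19), AT5G07340 (0.99 ± 0.18) and ATERDJ3B (0.91 ± 0.19) were higher, and the transcription factor gene BZIP60 was lower (-1.46 ± 0.21, adjusted p = 3.18e-06). BZIP60 read 13.38, 13.65 and 13.27 in wild type and 11.84, 11.82 and 12.27 in anac017-2, with a water mean of 10.04 in wild type. Of 30 cell wall growth loci 7 were measured, with 2 higher and 3 lower. XTH18, a xyloglucan endotransglucosylase, read 12.79, 13.48 and 12.81 in wild type and 8.19, 8.03 and 7.67 in anac017-2 (-5.06 ± 0.67, adjusted p = 9.46e-07), and XTH19 differed by -1.88 ± 0.52. The expansin genes EXPA15 (2.24 ± 0.46) and EXPA8 (1.95 ± 0.52), whose products loosen walls, were higher. Of 27 cell division loci 4 were measured, and PRL, a replication licensing factor, was higher (1.80 ± 0.37, adjusted p = 0.000313; 1.07 without wild type replicate 3). The clock gene GI was higher by 0.93 ± 0.16, the only one measured of 18. Of 22 flavonoid loci 5 were measured and 3 were higher, UGT78D1 (1.99 ± 0.25), UGT78D2 (0.44 ± 0.17) and CHIL, which was not above background on any wild type array and on 1 anac017-2 array (raised difference 1.21). Its fitted difference was 1.69 ± 0.55, and its call was lost without anac017-2 replicate 1 (1.16) or 3 (1.36) and stood at 2.54 without replicate 2. The call of UGT78D2 was lost when any of 5 arrays was left out (0.31 to 0.48). The guard cell lineage genes FMA (0.74 ± 0.17, adjusted p = 0.00075) and SPCH (1.42 ± 0.43, adjusted p = 0.00887) were higher, while MUTE was not called. SPCH was not above background on 2 wild type arrays (raised difference 1.10) and lost its call without wild type replicate 3 (1.02). In leaf tissue fewer cells of a type and less RNA per cell cannot be told apart, and the part of these genes in other results was not tested. ATERDJ3B, PRL, CHIL, UGT78D2 and SPCH were not called in the fit of the 6 arrays alone.

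Genes of respiration and the organelle genomes were taken next. Of 43 nuclear loci of oxidative phosphorylation 22 were measured, with 9 higher and 2 lower (23.9% and 15.0% over all probe sets) and a median of 0.11. The complex III subunit gene AT5G40810 (cytochrome c1) was higher by 0.58 ± 0.06 and the cytochrome c oxidase subunit gene AT3G15640 by 0.58 ± 0.19, a call lost when any of 4 arrays was left out (0.40 to 0.53). The lower ones were CYTC-2, a cytochrome c gene (-0.66 ± 0.11), and SDH2-1, a complex II subunit gene (-0.52 ± 0.11). Of 16 named mitochondrion-encoded genes, 5 were lower and 0 higher, with a median of -0.39. The complex I subunit gene nad5 read 5.73, 6.09 and 6.96 in wild type and 3.16, 3.18 and 3.17 in anac017-2 (-3.09 ± 0.27, adjusted p = 1.8e-09), with a wild type water mean of 2.64. The next were nad6 (-1.25 ± 0.37), cox2 (-0.98 ± 0.25) and cox1 (-0.45 ± 0.13). The probe sets of nad5 and nad6 carry a suffix for sequences shared by several transcripts, so copies of these genes elsewhere cannot be told apart. Of 69 plastid-encoded genes 1 was higher and 3 lower, rpl33 (0.44 ± 0.12) and petD (-0.47 ± 0.18), ndhI (-0.17) and psaB (-0.17), shares below the background of 23.9% and 15.0%. All 4 of these calls, and those of nad6 and cox2, were lost in the fit of the 6 arrays alone. Without wild type replicate 3 the calls of nad6 (-0.85), rpl33 (0.29) and ndhI (-0.16) were lost, and without wild type replicate 2 those of petD (-0.40), ndhI (-0.14) and psaB (-0.13). The calls of petD and ndhI were also lost without anac017-2 replicate 1 or 2, and that of petD without wild type replicate 1, at -0.50 to -0.35 and -0.15.

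Of 26 autophagy loci 13 were measured, with 3 lower and 1 higher, where 15.0% and 23.9% of all probe sets were, as for the lists that follow. ATG8E, which encodes a ubiquitin-like protein of autophagosome membranes, read 10.23, 10.84 and 10.55 in wild type and 8.08, 7.97 and 9.50 in anac017-2 (-2.02 ± 0.39, adjusted p = 0.000128), ATG8H differed by -1.29 ± 0.19 and ATG3 by -0.34 ± 0.06, and ATG8G was higher by 0.42 ± 0.11. Of 17 hypoxia loci 6 were measured, and beside AT4G24110 only the pyruvate decarboxylase gene PDC2 was lower (-0.32 ± 0.11, adjusted p = 0.0192). Of 34 tryptophan, camalexin and glucosinolate loci 5 were measured, with the glucosinolate gene AT2G31790 higher (1.15 ± 0.20) and the tryptophan synthesis gene AT2G04400 lower (-0.99 ± 0.26). Without wild type replicate 3 AT2G31790 had 0.76, and with array weights AT2G04400 had -0.53. Neither was called in the fit of the 6 arrays alone, and PDC2 lost its call there and without wild type replicate 3 (-0.28) or anac017-2 replicate 3 (-0.24). Of 13 senescence and starvation loci 2 were measured, and SAG101 was the lower one. Lists of mitochondrial carriers and import, aquaporins and nitrate assimilation had no measured member.

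Gene families grouped by symbol after the values had been seen gave further counts, each against the background of 23.9% higher and 15.0% lower. Of 47 UGT glycosyltransferase genes 7 were higher and 12 lower, from UGT71B6, lower by at least 4.62, and UGT76E12 at -4.05 (raised difference) to UGT72B3 at 1.89 and UGT78D1 at 1.99. Of 29 serine carboxypeptidase-like genes 10 were higher and 1 lower. Of 15 IQD genes, which encode calmodulin-binding scaffold proteins, 7 were higher and 2 lower, with IQD19 at 1.90 (raised difference, 2 wild type arrays not above background). Of 15 tetraspanin genes 3 were lower and 2 higher, with TET8 at -2.28. Of 14 SWEET sugar transporter genes 3 were higher and 1 lower, with SWEET1 at 2.75. Of 10 alpha expansin genes 4 were higher and 0 lower. Among 26 cytochrome P450 genes 3 were higher and 1 lower, CYP84A4 at -4.58 (raised difference).

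The other mutants are set beside anac017-2 under antimycin A by their own counts. The comparisons share the wild type arrays, so no overlap or correlation between them is given. Against wild type, rao2 differed at 1516 probe sets (6.66%) and anac017-1 at 4242 (18.6%), beside 8852 (38.9%) for anac017-2. In fits of the 6 compared arrays alone, rao2 differed at 2 probe sets, anac017-1 at 1062 and anac017-2 at 6728. For AT2G21640 the differences from wild type were -0.42 ± 0.49 in anac017-2, -4.10 ± 0.49 in rao2 and -4.89 ± 0.49 in anac017-1. For AT2G32140 they were -6.59 ± 0.58, 0.97 ± 0.58 and 0.75 ± 0.58 in the same order. The first gene was thus near wild type in anac017-2 and far below it in the other mutants, and the second the reverse. For NDB4 all 3 lay below wild type, at -3.53 ± 0.28, -4.22 ± 0.28 and -4.63 ± 0.28.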

How the data were processed

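Transcripts were measured on Affymetrix ATH1 arrays, 1 per sample, in 12 groups of 3. The authors deposited linear intensity values per probe set, and per the submitters' processing notes RMA and GCRMA were used, with neither version nor order given, so which made the values is not known here. Of 22810 probe sets, 64 controls were left out and 22746 were tested. The values were taken to log2 without further scaling. For 13513 probe sets the platform annotation names 1 gene (13355 loci), 503 name several and were not named, and 8730 have no entry.

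Group means over all 36 arrays were fitted with limma 3.58.1 in R 4.3.3 (lmFit, eBayes), and p-values were adjusted by Benjamini-Hochberg over all probe sets, with 0.05 as the threshold. The fit was tested on simulated data. Named genes were the 12 highest and 12 lowest called differences without overlap under antimycin A, 5 in each direction in water, and up to 4 per list. The comparison, the members and the lists were chosen with earlier results of these data known. The fold rule and the comparisons with rao2 alone and anac017-1 alone were added after seeing the data. So were the families by symbol and the genes without a called response in the other mutants. The median difference of all probe sets lay between 0.01 and 0.02 under each scaling. With 3 arrays per group, their number limits the precision.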

Additional observations from a re-analysis of the deposited data

Results flagged for a closer look

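The difference between anac017-2 and wild type was not the same under antimycin A and in water at 6467 probe sets, by limma's interaction term at an adjusted p under 0.05. Of the 138 genes named by rule, 105 were called in that test, against 28.4% over all probe sets. Of the 138, 5 were called in that test and in both sprays with opposite signs. The genes were named by their differences on the same arrays, so these counts add no support. AT2G20560, a heat shock list member named after its values were seen, was also called in both sprays with opposite signs, and its difference between the comparisons was -3.75 ± 0.51.

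AT1G21550 had a log2 difference of -2.32 ± 0.78 under antimycin A, 4.18 ± 0.78 in water and -6.50 ± 1.10 between the comparisons (adjusted p = 7.28e-05 in limma). For UGT73B5 the difference between the comparisons was -5.54 ± 0.41 (adjusted p = 7.82e-10), and every anac017-2 array lay above wild type in water and below it under antimycin A. The small heat shock genes AT1G54050 and AT1G53540 gave -5.18 ± 0.45 and -4.93 ± 0.62, and the co-chaperone gene AT5G48570 gave -3.43 ± 0.49. Groups of 3 arrays were too small for a test of single outlying arrays.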

How the results depend on the processing

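The count for anac017-2 against wild type under antimycin A was 8852, lay between 6728 and 9962 over changes of threshold, arrays fitted, scaling, prior, weights, filter and raised low values, and was 3176 with an absolute log2 difference of at least 1 as well. It lay between 7590 and 8914 with each array left out in turn. The count in water (115) depended on the fit. It was 38 at an adjusted p under 0.01, 71 with only the compared arrays and 1891 with array weights, and it lay between 40 and 88 with an array left out, at 60 without wild type replicate 1, 40 without anac017-2 replicate 2 and 49 without its replicate 3. For rao2 (1516) the count was 717 at 0.01, 2 with only the compared arrays and 1038 to 1631 with an array left out. For anac017-1 (4242) these were 2517, 1062 and 3209 to 4061. The difference between sprays (6467) lay at 5539 to 7001, the comparison with rao2 and anac017-1 (10278) at 9169 to 10357 and their response (11852) at 11426 to 11743 with an array left out. Against rao2 alone and anac017-1 alone 8852 and 10152 probe sets were called.

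Replicates with the same number in anac017-2 and wild type under antimycin A had correlations of 0.042, -0.132 and -0.003 between their deviations. In water these were 0.098, 0.049 and 0.053. Whether the replicate numbers mark a shared origin was not tested. With the replicate block 8956 probe sets were called under antimycin A, 117 in water, 6587 between sprays, 10383 against rao2 and anac017-1, 1607 for rao2, 4419 for anac017-1 and 11895 for the response.

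Of 119 named genes called under antimycin A, 29 lost the call under at least 1 alternative and none changed sign. Among the 19 not called, 9 calls were gained. They were AT2G04050 and AT5G37670 in the fit of the compared arrays, AT2G40435 under 4 alternatives, COR15B and EXPA18 with array weights, and CLV3 without wild type replicate 1. PDF1.2 turned to -0.04 without wild type replicate 2 and to -0.30 without anac017-2 replicate 3 (range over left-out arrays -0.30 to 0.73), and CLV3 to 0.01 without wild type replicate 3 (range -0.16 to 0.01). The cause was not tested. Differences of genes near array background depend on values with no order, and raised differences bear on them.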

Other observations

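The hydrogen peroxide arrays of both genotypes entered no comparison above, and their levels of the 4 stimulon genes called in water are given as values (log2 intensity, mean ± SD, n = 3, difference not tested). AT2G21640 had 10.37 ± 0.31 in wild type and 11.62 ± 0.17 in anac017-2. AT2G04050 had 7.77 ± 1.04 and 9.77 ± 0.34. AT2G41730 had 12.33 ± 0.41 and 13.16 ± 0.20, and AT5G43450 had 11.99 ± 0.55 and 12.79 ± 0.18.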
